A study of Caenorhabditis elegans with 6 samples.

Results

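The DBL-1 pathway is the TGF-beta branch that sets body size in *C. elegans*. Its 10 core genes were followed here in worms sorted by how many exophers they carried. They were chosen by symbol and found among the 46756 genes of the deposited table: the ligand *dbl-1*, the receptors *daf-4* and *sma-6*, the Smads *sma-2*, *sma-3* and *sma-4*, the cofactor *sma-9*, the modulators *sma-10* and *lon-2*, and the output gene *lon-1*. All 10 had enough counts to be tested. Exophers are large vesicles that body wall muscle sheds. RNA was taken from whole hermaphrodites of strain ACH93 on day 2 of adulthood. The high exopher group has 3 libraries, from worms with more than 20 exophers, and the low exopher group has 3, from worms with fewer than 2. The worms are wild type apart from their reporters. Both groups carry the same pair of integrated transgenes, wacIs1 and wacIs14, in which the muscle *myo-3* promoter drives fluorescent RPN-5 and TOMM-20 fusions with the *unc-54* 3′ end and an *unc-119* rescue. The groups are thus a sort of one strain by a muscle phenotype. The sources used here do not say how many worms went into a library, and the labels name the replicates of each group as biological.

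DBL-1 is a secreted protein related to bone morphogenetic proteins and is made mainly by neurons, among them those of the ventral nerve cord. It binds a receptor pair of DAF-4 and SMA-6, which activates the Smads SMA-2 and SMA-3. These join SMA-4, enter the nucleus and change transcription, above all in the epidermis. Loss of the signal gives small (Sma) worms and excess signal gives long (Lon) worms, hence the gene names. The pathway also acts in lipid storage, innate immunity and mating. A *dbl-1* mutant was among the strains whose exopher output the study scored, which raises the question of whether the pathway's transcripts differ between worms with many and with few exophers.

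None of the 10 genes was called different between the groups. With edgeR's quasi-likelihood test, with thresholds of 0.05 for the adjusted p and 1 for the size of the log2 fold change, 0 rose and 0 fell, against 5.74% of the 15883 genes tested in either direction (2.95% higher and 2.78% lower in high exopher worms). At an unadjusted p under 0.05 the count was 1 of 10, against 17% of all genes tested. That gene was *sma-10*, which was also the only member whose groups did not overlap, against 21.7% of all genes tested. Of the log2 fold changes, 2 were positive and 8 negative, beside 7503 positive and 8380 negative of the 15883 genes tested. Their median was -0.15 (high over low) in the 10 genes, beside a median of -0.01 over all genes tested. In 9 of the 10 genes the 95% interval of the log2 fold change lay inside -1 to 1. DESeq2 and limma-voom also called 0 of the 10 at both thresholds.

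**Figure D1:**
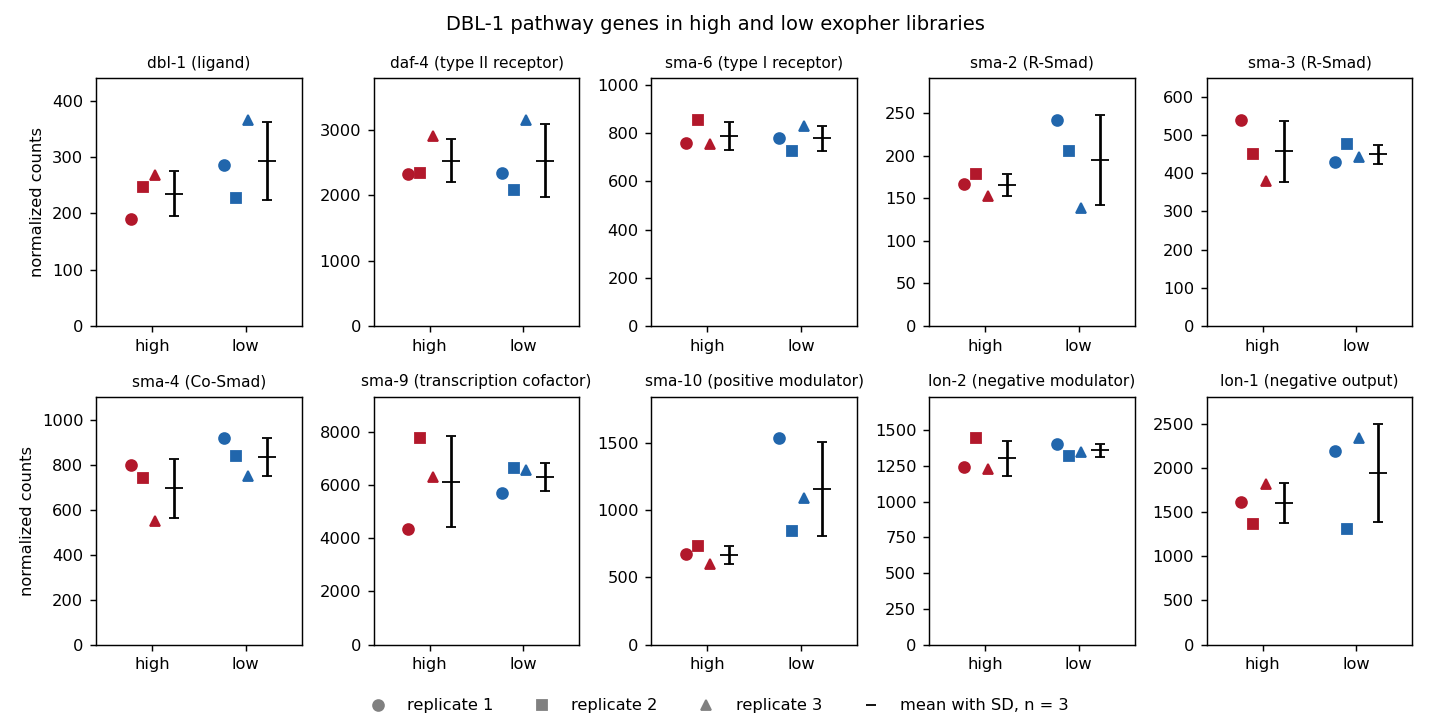
Normalized counts (vertical axes, each starting at 0) of the 10 DBL-1 pathway genes in the high and the low exopher libraries, with the replicate number as the marker shape and the mean with SD (n = 3) beside each group. The points of the groups overlap in 9 genes. In *sma-10* the 3 high libraries lie between 598 and 731 and the 3 low libraries between 843 and 1538.

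The ligand comes first. *dbl-1* (WBGene00000936, chromosome V, 6758135 to 6760418 on WBcel235, forward strand, 8 exons) was covered by 205 to 319 reads per library. Its normalized counts, which are counts scaled to a common library size, were 190.2, 248 and 268 in high exopher worms and 287, 228 and 367 in low exopher worms. The lowest library was high and the highest was low, but the groups overlapped. The means were 235.3 ± 40.3 in high and 294 ± 69.5 in low (SD, n = 3 each). The log2 fold change was -0.32 (SE 0.244, 95% interval -0.89 to 0.25, edgeR adjusted p = 0.637). It was -0.13 without low replicate 3 and -0.49 without low replicate 2, and passed in neither. In *dbl-1*, 9 exon bases are shared with *T25F10.4* on the other strand.

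The receptors were nearly level between the groups. *daf-4* (chromosome III, 5625135 to 5632323) encodes the type II receptor, a serine/threonine kinase that the DAF-7 branch of dauer formation uses too. Its normalized counts were 2326, 2339.9 and 2900.1 in high and 2335, 2082 and 3151 in low. Replicate 3 was the highest library in each group, and the group means of 2522 and 2523 differed by far less than the SDs of 328 and 559. Its log2 fold change was 0.00 in size (SE 0.167, 95% interval -0.39 to 0.39, adjusted p = 0.9998). *sma-6* (chromosome II, 6324484 to 6327355) encodes the type I receptor, whose function in the epidermis sets body size. It had 760.1, 856 and 754 normalized counts in high and 780.2, 725 and 831 in low. These 6 values lay within 1.18-fold of each other, and with *lon-2* this was the narrowest spread of the 10 genes. The log2 fold change of *sma-6* was 0.02 (SE 0.136, 95% interval -0.30 to 0.34, adjusted p = 0.970).

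Of the Smads, the DNA-binding proteins that carry the signal into the nucleus, none passed the test. *sma-2* (chromosome III, 8749680 to 8757089), a receptor-regulated Smad, was the scarcest of the 10 transcripts. It had 167, 178 and 152 normalized counts in high and 242, 205 and 138 in low, with both the highest and the lowest library in the low group. Its log2 fold change was -0.24 (SE 0.256, 95% interval -0.83 to 0.36, adjusted p = 0.766). In *sma-2*, 152 exon bases are shared with *aak-1* and *ugtp-1* on the other strand, and reads there can be told apart only by strand. *sma-3* (chromosome III, 6860974 to 6863968), the other receptor-regulated Smad, had 540, 451 and 381 normalized counts in high and 429, 477 and 442 in low. Here the extremes were both in the high group, and the log2 fold change was 0.02 (SE 0.182, 95% interval -0.40 to 0.45, adjusted p = 0.974).

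*sma-4* (chromosome III, 5816232 to 5820204) encodes the co-Smad that both receptor-regulated Smads need. It had 799, 741 and 549 normalized counts in high and 919, 840.3 and 752 in low. High exopher worms were below low exopher worms in each of the 3 replicate numbers, yet 1 high library lay above the lowest low library. Its log2 fold change was -0.27 (SE 0.180, 95% interval -0.68 to 0.15, adjusted p = 0.579). *sma-9* (chromosome X, 10769282 to 10782973) encodes a large zinc-finger protein of the Schnurri family, a nuclear partner of the Smads with 16 annotated transcripts. Its normalized counts were 4345, 7757 and 6280.1 in high and 5688, 6642 and 6557 in low. Both ends of this range were high libraries, replicate 1 the lowest and replicate 2 the highest. The coefficient of variation was 27.9% in high and 8.39% in low. For *sma-9* the log2 fold change was -0.04 (SE 0.188, 95% interval -0.47 to 0.40, adjusted p = 0.958). The counts sum over all transcripts, so a shift between isoforms of *sma-9* would not be seen, and 47 of its exon bases are shared with *clc-4* on the other strand.

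The modulators act at the cell surface, and the largest estimate among the 10 genes was that of one of them. *sma-10* (WBGene00020649, chromosome IV, 274420 to 279943) encodes a transmembrane protein with leucine-rich repeats and immunoglobulin domains, related to the LRIG proteins, that promotes signalling through the receptors. It had 674, 731 and 598 normalized counts in high exopher worms and 1538, 843 and 1093 in low exopher worms. Every high library lay below every low library, and the low libraries were spread widely, with a coefficient of variation of 10% in high and 30.4% in low. The means were 667 ± 67.0 in high and 1158 ± 352 in low (SD, n = 3 each). The log2 fold change was -0.80 (SE 0.225, 95% interval -1.32 to -0.27), a level in high of 0.576 times that in low, with an unadjusted p of 0.008 and an adjusted p of 0.0892 in edgeR's quasi-likelihood fit over all genes. By p-value *sma-10* was number 1424 of the 15883 genes tested. No exon of *sma-10* overlaps another annotated gene.

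The adjusted p of *sma-10* lay on both sides of 0.05 with the method, while its log2 fold change stayed negative. DESeq2's Wald test gave -0.81 with an adjusted p of 0.00776, and limma-voom gave -0.77 with 0.125. Libraries of the same replicate number deviated together from their group means, though the labels do not state a pairing. The fit with the replicate block is therefore given as well, and it gave -0.76 with an adjusted p of 0.0488. The size rested in good part on low replicate 1. Without it the log2 fold change of *sma-10* was -0.56 (adjusted p = 0.225), and without low replicate 2, the low library nearest to the high ones, it was -0.998 (adjusted p = 0.0222). Without the other libraries in turn, adjusted p lay between 0.15 and 0.241. Under none of these did *sma-10* pass both thresholds.

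**Figure D2:**
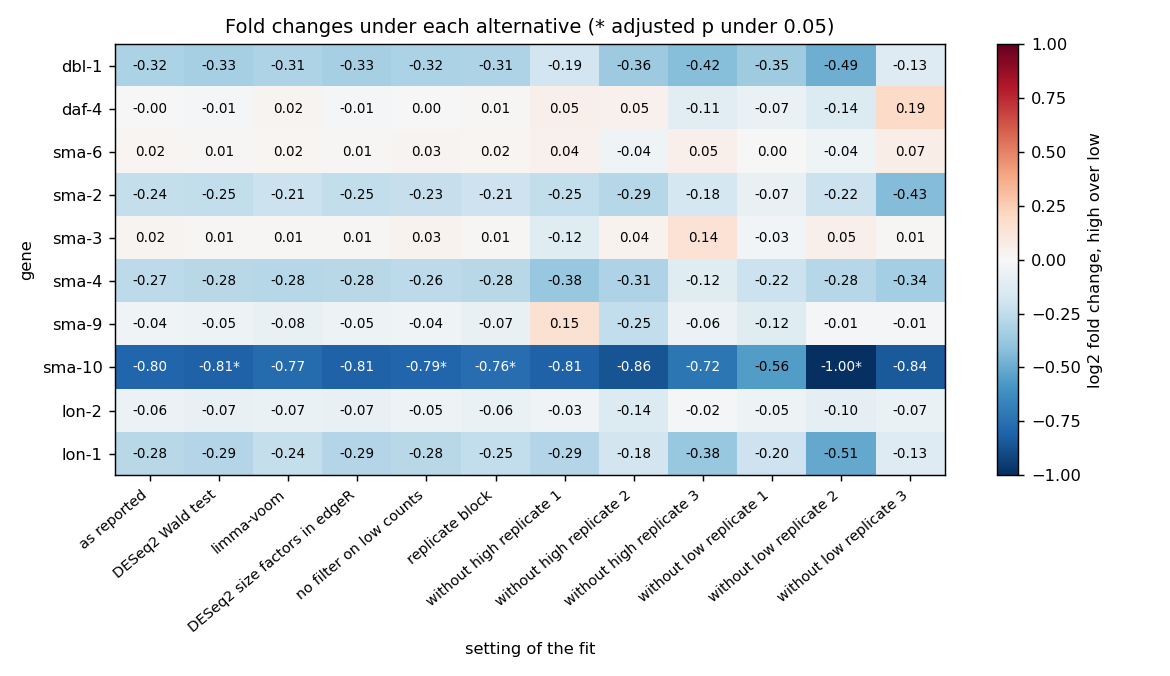
Log2 fold change of high over low (colour and number) for each of the 10 genes (vertical axis) as reported and under each other setting of the fit (horizontal axis), with an asterisk where the adjusted p is under 0.05. The *sma-10* values are negative throughout, between -0.998 and -0.556, with asterisks at 4 settings, and the values of *daf-4*, *sma-6*, *sma-3* and *sma-9* change sign.

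*lon-2* (chromosome X, 4738964 to 4749083) encodes a glypican, a proteoglycan at the cell surface that binds DBL-1 and holds the signal down. It had 1242, 1444 and 1226 normalized counts in high and 1406, 1321 and 1349 in low. The low libraries lay inside the range of the high ones, and the log2 fold change was -0.06 (SE 0.116, 95% interval -0.33 to 0.21, adjusted p = 0.884), which made *lon-2* the member with the smallest standard error. The groups overlapped in *lon-2* and not in *sma-10*, and absence of overlap was seen in 21.7% of all genes tested. This gives no contrast between the promoting *sma-10* and the attenuating *lon-2*, and the difference between these genes was not tested.

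*lon-1* (chromosome III, 5474476 to 5478005) lies downstream. It encodes a secreted protein of the CRISP family that shortens the worm, and the pathway represses its transcription in the epidermis. Its normalized counts were 1623, 1368 and 1824 in high and 2192, 1315 and 2342 in low. In low exopher worms replicate 2 stood well under the others and was the lowest of the 6 libraries. The means were 1605 ± 229 in high and 1949.9 ± 555 in low (SD, n = 3 each), with a log2 fold change of -0.28 (SE 0.220, 95% interval -0.79 to 0.23, adjusted p = 0.651). Without low replicate 2 the log2 fold change of *lon-1* was -0.51, and without low replicate 3 it was -0.13. Neither passed the test.

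**Figure D3:**
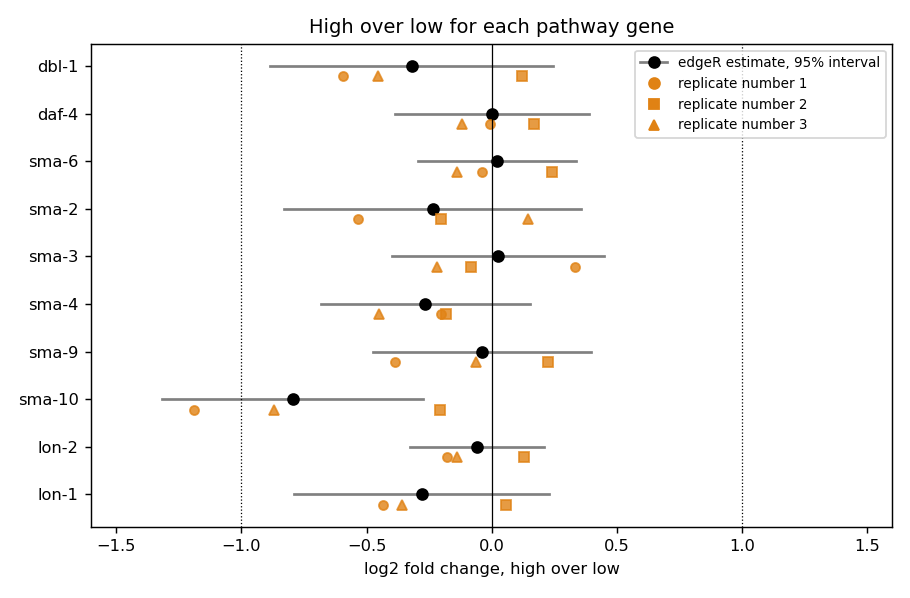
Log2 fold change of high over low (horizontal axis) for the 10 genes, with edgeR's estimate and its 95% interval (black point and line) and the differences within each replicate number (orange markers), and dotted lines at the thresholds of -1 and 1. The interval of *sma-10*, -1.32 to -0.27, is the only one that does not reach 0.

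Levels differed more between the genes than between the groups. Set against exon length, as CPM (counts scaled to library size) per kilobase of exon, the mean level over the 6 libraries was highest for *lon-1* at 22.4 and lowest for *sma-2* at 1.57. After *lon-1* came *daf-4* at 12.1, *sma-9* at 11.9 and *lon-2* at 10.3. A middle group followed with *sma-4* at 6.04, *sma-6* at 5.46, *sma-3* at 5.15 and *sma-10* at 4.49, and *dbl-1* at 2.27 stood below it. Neighbours in this order overlapped in their range over the libraries except at 2 steps, between *lon-1* and *daf-4* and between *lon-2* and *sma-4*. So the ligand and an R-Smad were the least abundant messages, and the repressed output the most abundant. In whole worms, fewer cells of a type and less RNA per cell cannot be told apart, which holds for each level and each difference given here. Exon length counts every annotated exon once, UTRs included.

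**Figure D4:**
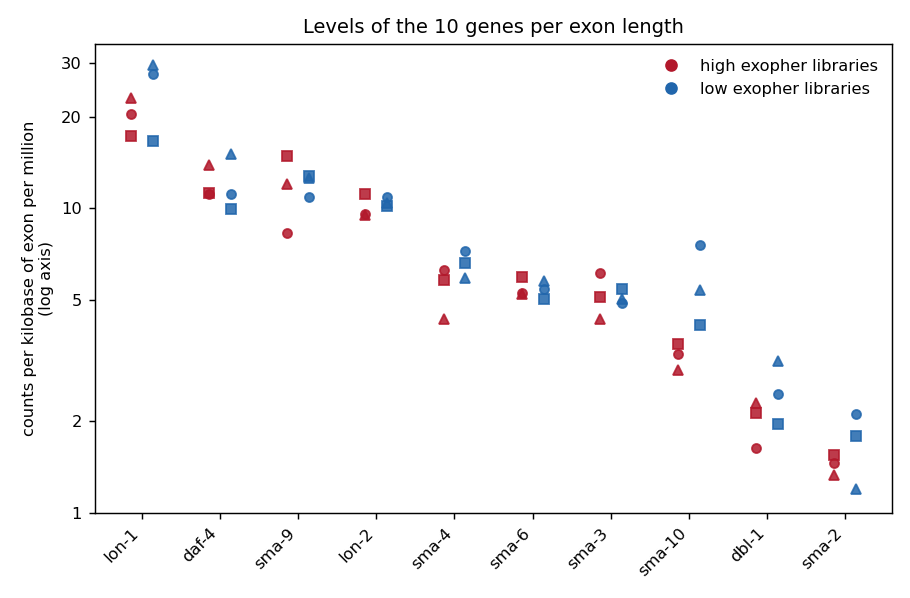
Level of each of the 10 genes in CPM per kilobase of exon (logarithmic vertical axis), one point per library, high exopher libraries left of low ones, genes ordered by their mean level. The genes run down from *lon-1* at a mean of 22.4 to *sma-2* at 1.57, and only *sma-10* has groups that do not overlap.

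Spread between libraries also ranked the genes. The highest normalized count over the lowest was 2.57 for *sma-10*, 1.93 for *dbl-1*, 1.79 for *sma-9* and 1.78 for *lon-1*, and 1.18 for *sma-6* and *lon-2*. Counting error alone would give a coefficient of variation of 9.13% at the lowest count of *sma-2* and 6.98% at that of *dbl-1*. In the abundant *sma-9* that figure was 1.46%, below its spread of 27.9% among the high libraries. The replicate numbers gave different pictures. In number 1 and in number 3, the high library was below the low one in 9 of the 10 genes (52.1% and 52.3% of all genes tested), the exceptions being *sma-3* in number 1 and *sma-2* in number 3. In number 2 it was below in 4 of the 10, *sma-2*, *sma-3*, *sma-4* and *sma-10* (50.2% of all genes tested). Genes of one library share its RNA and its scaling, so these counts are a description.

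Among 15 other genes of the pathway, all tested, 0 passed both thresholds in either direction, in DESeq2 as in edgeR, and the median log2 fold change was 0.03. They comprised co-receptors (*drag-1*, *unc-40*), secreted or cell-surface modulators (*crm-1*, *adt-2*), tetraspanins with the ADAM10 protease *sup-17* that they act with, the proprotein convertase *bli-4*, the kinase *kin-29*, trafficking genes (*dpy-23*, *vps-35*, *arf-6*), *bra-1* and the RUNX factor *rnt-1*. The 2 genes with an unadjusted p under 0.05, beside 17% of all genes tested, were both higher in high exopher worms. *rnt-1*, which acts in seam cell division and body size, had the largest estimate. It had 123.4, 112.2 and 99.3 normalized counts in high and 55.1, 61.7 and 54.02 in low, so that the groups did not overlap. Its log2 fold change was 0.97 (SE 0.242, edgeR adjusted p = 0.0584), and with the replicate block the adjusted p was 0.0342.

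The other was *tsp-14*, a tetraspanin that promotes signalling with its paralog *tsp-12*, singled out here after its values were seen. It had 1109.9, 1158 and 999 normalized counts in high and 537, 721 and 445 in low, again without overlap, as in 21.7% of all genes tested. For *tsp-14* the log2 fold change was 0.94 (SE 0.196, adjusted p = 0.0309), which passed on the adjusted p and not on the fold. Without low replicate 2 it passed both, at 1.13 with an adjusted p of 0.0103. When another single library was left out, its adjusted p lay above 0.05 in each case. The paralog *tsp-12* did not pass, with a log2 fold change of 0.05 (SE 0.067, adjusted p = 0.830). Thus the surface helpers *sma-10* and *tsp-14* had estimates of opposite sign.

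The DAF-7 branch shares the DAF-4 receptor, and with the remaining TGF-beta ligands it made a list of 9 genes, all tested. Of these 0 passed both thresholds, in DESeq2 as in edgeR. At an unadjusted p under 0.05 there were 2, beside 17% of all genes tested, and the median log2 fold change was -0.04. The largest estimate was that of *daf-8*, a receptor-regulated Smad of the dauer branch, which had 636, 1594 and 969.6 normalized counts in high and 1461, 2228 and 1907 in low. *daf-8* had a log2 fold change of -0.81 (SE 0.318, adjusted p = 0.237), with overlap between the groups but a lower high library in each replicate number, and with the replicate block it was -0.88 (adjusted p = 0.00957). *unc-129*, a divergent ligand of axon guidance, was the one gene of the list without overlap, beside 21.7% of all genes tested. It is named after its values were seen. It had 892, 845 and 756 normalized counts in high and 427, 658 and 440.2 in low, a log2 fold change of 0.71 (SE 0.203, adjusted p = 0.0935, or 0.0256 with the replicate block). The ligand *daf-7* had a log2 fold change of 0.34 (SE 0.298, adjusted p = 0.698). *daf-1*, *daf-3*, *daf-5* and *daf-14*, the rest of the dauer branch, lay between -0.27 and 0.02.

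**Figure D5:**
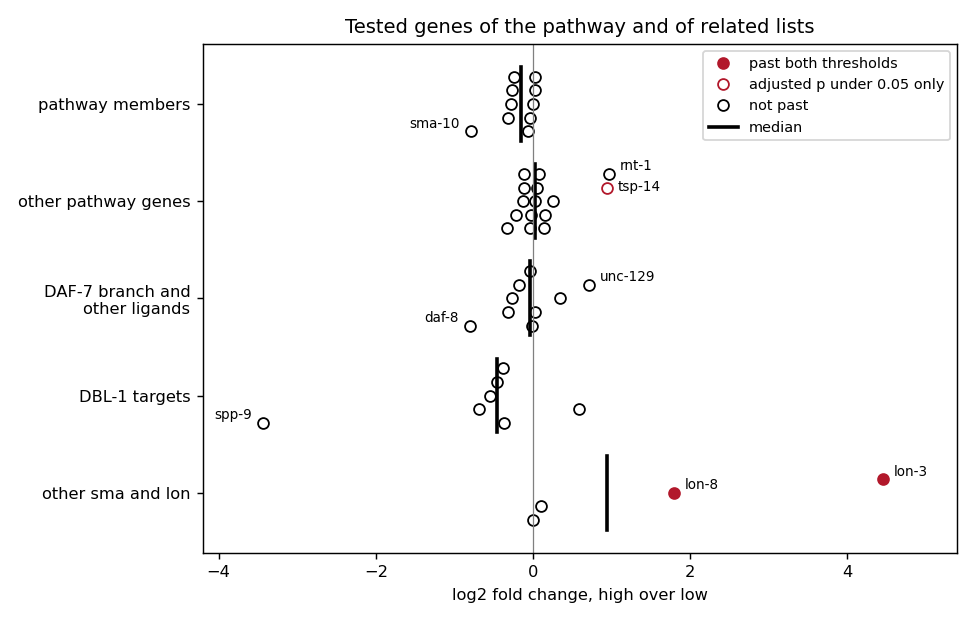
Log2 fold change of high over low (horizontal axis) for the tested genes of the pathway and of each related list, 1 point per gene, with the list's median as a black bar. The 10 core genes lie between -0.80 and 0.02. Filled points, past both thresholds, are *lon-3* at 4.45 and *lon-8* at 1.79.

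Genes known to respond to DBL-1 were read as well. Of 9 listed, 7 had enough counts for the test, 0 of those passed both thresholds and 3 (*spp-9*, *fat-6* and *lys-8*) had an unadjusted p under 0.05, beside 17% of all genes tested. The median log2 fold change was -0.46, with 6 of the 7 tested estimates negative, beside 8380 of the 15883 genes tested. The list mixes genes that the pathway activates with genes that it represses, so a shared sign gives no direction of signalling. The listed genes that the filter removed, *rol-6* and *col-41*, had positive estimates in the fit with no filter. The largest estimate was for *spp-9*, a saposin-like gene that the pathway represses. Its raw counts were 8, 2 and 6 in high and 108, 10 and 50 in low, without overlap. The log2 fold change of *spp-9* was -3.43 (SE 0.850, 95% interval -5.40 to -1.46, adjusted p = 0.0566), and with the replicate block it was -3.35 with an adjusted p of 0.00336, past both thresholds. Without low replicate 2 it was also past both, at -3.94 (adjusted p = 0.00623), and in DESeq2 too, at -3.48 (adjusted p = 0.00204). In limma-voom it was -3.01 with an adjusted p of 0.197, and without each of the other libraries in turn the adjusted p lay between 0.126 and 0.165.

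The other targets did not pass. *cnc-2*, an antimicrobial peptide gene that DBL-1 activates in the epidermis, had 1579, 642 and 583 normalized counts in high and 680.2, 457 and 727 in low. High replicate 1 stood far above the rest, and the other high libraries lay inside the range of the low ones. The log2 fold change of *cnc-2* was 0.59 (SE 0.391, adjusted p = 0.568). The delta-9 desaturase *fat-6* had -0.54 (SE 0.209, adjusted p = 0.224, or 0.00615 with the replicate block) and its paralog *fat-7* had -0.68 (SE 0.451, adjusted p = 0.567). The lysozyme *lys-8* had -0.36 (SE 0.127, adjusted p = 0.170). The cuticle collagen genes *col-141* and *col-142* were at -0.46 and -0.38, both with adjusted p above 0.5. Both collagen genes that the filter removed were scarce. *rol-6* had raw counts of 24, 6 and 63 in high and 1, 0 and 5 in low, and in the fit with no filter its log2 fold change was 3.74 (adjusted p = 0.102). *col-41* had raw counts of 3, 2 and 68 in high and 2, 0 and 1 in low. In the fit with no filter its log2 fold change was 4.36 (adjusted p = 0.343), which rests on high replicate 3.

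Other genes named sma or lon were listed by symbol alone. Whether they act apart from the pathway was not tested. Of the 4 other genes named sma or lon, 2 rose in high exopher worms and 0 fell, beside 2.95% and 2.78% of all genes tested. *lon-3*, which encodes a cuticle collagen, had raw counts of 107, 29 and 85 in high and 5, 0 and 4 in low. Its log2 fold change was 4.45 (SE 0.794, adjusted p = 0.0198). *lon-8*, which encodes a secreted protein of the epidermis, had 463, 211 and 256 normalized counts in high and 118, 62.8 and 88.5 in low, a log2 fold change of 1.79 (SE 0.372, adjusted p = 0.0308). Neither call held without each library. *lon-3* was at an adjusted p of 0.068 without high replicate 1, 0.0669 without high replicate 3 and 0.0516 without low replicate 3. *lon-8* was at 0.0806, 0.0514 and 0.0715 without high replicates 1, 2 and 3, and at 0.0896 without low replicate 3. The spectrin gene *sma-1* (0.10, SE 0.190, adjusted p = 0.886) and the MAP kinase gene *sma-5* (0.00, SE 0.127, adjusted p = 0.998) did not pass. The 10 core genes had 0 calls, beside 5.74% of all genes tested, and the lists were not compared by a test.

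Summed marker levels put these values in the setting of the whole worm. Over all genes tested, 5.74% passed both thresholds and 17% had an unadjusted p under 0.05. Markers of the epidermis, where the pathway sets body size, summed to 16748 to 19678 normalized counts in high and 15632 to 22198 in low, with overlap, and *lin-26* and *col-19* made up most of that sum. One of its 5 genes passed, the cuticle collagen *dpy-7* at 1.52 (adjusted p = 0.0185), higher in high. The epidermal GATA factor gene *elt-3*, at 0.68 (adjusted p = 0.0665), was the other epidermis marker with an unadjusted p under 0.05 and no overlap between the groups. The groups overlapped in *nhr-25* at 0.19, *lin-26* at -0.01 and *col-19* at -0.29, with adjusted p between 0.666 and 0.960. Pan-neuronal markers, for the tissue that makes the ligand, summed to 16952 to 17555 in high and 17222 to 18892 in low, and 0 of 6 passed (2 at an unadjusted p under 0.05). Most of that sum was *snb-1*, and the 2 genes had opposite signs, *unc-10* at 0.69 and *egl-3* at -0.55. Cholinergic motor neuron markers summed to 339 to 414 in high and 193 to 221 in low, without overlap, although 0 of 4 passed on their own (2 at an unadjusted p under 0.05). Those 2 were *unc-3* at 1.23 and *acr-2* at 2.18, the latter with 2 to 30 raw counts per library. The groups overlapped in *unc-17* at 0.41 (adjusted p = 0.613) and *cha-1* at 0.56 (adjusted p = 0.449). Body wall muscle markers summed to 43473 to 54963 in high and 58897 to 68832 in low, also without overlap, with 0 of 5 past both thresholds and 4 at an unadjusted p under 0.05. The muscle myosin gene *myo-3*, whose promoter the transgenes use, went against the sum, with a log2 fold change of 0.70 (adjusted p = 0.0234). Sperm markers summed to 45.3 to 118.8 in high and 292 to 1049 in low, and 2 of the 4 tested fell. Intestine, germline and early embryo sums overlapped between the groups. The early embryo list holds early zygotic genes only, and no list for later embryos was read. Low replicate 1, the highest library for *sma-10*, was also the highest for the sperm, the muscle and the pan-neuronal sums. What part tissue composition had in the *sma-10* difference was not tested.

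The profile most like that of *dbl-1* over the 6 libraries, by the root mean square difference of centred log2 counts, was that of *F53B1.8* at 0.0588, followed by *W07E11.1* at 0.0626 and *ppk-3* at 0.08. *ppk-3* encodes a phosphatidylinositol phosphate kinase. None of these 3 genes passed the test, with adjusted p between 0.645 and 0.746.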

How the data were processed

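Per the labels and the study's methods, poly(A) RNA was sequenced and the authors trimmed reads with Trimmomatic 0.36, aligned them with STAR 2.5.2b and made raw counts per gene with featureCounts (Subread 1.5.2). The strand setting and the Ensembl release were not given in the sources used here. The authors also deposited a table of 15931 genes as a normalized signal, the counts over 1 size factor per library, used here only as a check. Total counts were 60511481 to 72909583 per library, and 21155 of 46756 genes had none.

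Counts were tested for high against low in R 4.3.3 with edgeR 4.0.16 (filterByExpr, TMM, robust quasi-likelihood F test, Benjamini-Hochberg over all 15883 genes tested). A gene was called at an adjusted p under 0.05 with a log2 fold change beyond 1 in size. SE is the log2 fold change over the square root of F. DESeq2 1.42.0 and limma 3.58.1 served as alternatives, with other size factors, no filter on low counts, no fold change minimum, a replicate block and each library left out. On data simulated for this comparison from 15883 genes, 156 of 200 genes changed by a log2 fold change of 2 were recovered, with 12 false calls. Positions and exon lengths come from Ensembl release 115 (WBcel235), which held 46581 of the gene identifiers.

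Libraries of the same replicate number deviated together from their group means (r = 0.275, 0.244 and 0.325 for numbers 1, 2 and 3), against -0.118 to -0.17 for other pairs. Deviations within a group cancel out, so the negative values of other pairs follow from the positive ones and are no separate baseline. The pairing is read from these values, not stated in the labels. Replicates of a group differed beyond sampling noise (chi-square per gene 44.8 to 95.2).

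The 10 genes and the other lists were chosen with earlier results of these data known. Named were all 10 genes, in each other list those past the thresholds or else the largest estimate, and the 3 profiles nearest to *dbl-1*. Others are said to be named after their values were seen.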

Additional observations from a re-analysis of the deposited data

How the results depend on the processing

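None of the 10 genes passed both thresholds under any of the alternatives run. By the adjusted p alone, a count added after seeing the data, 1 gene (*sma-10*, lower) passed with DESeq2, with no filter on low counts (adjusted p = 0.0344), with the replicate block and without low replicate 2, against 0 as reported, so leaving out libraries gave 0 to 1. The sign of 4 small estimates turned. For *daf-4* it was 0.025 with limma-voom, 0.0025 with no filter, 0.014 with the replicate block and -0.14 to 0.19 over left-out libraries. Left-out libraries gave -0.044 to 0.069 for *sma-6*, -0.12 to 0.14 for *sma-3* and -0.25 to 0.15 for *sma-9*. The target list had 1 gene lower (*spp-9*) with DESeq2, with no filter and with the replicate block, and 0 to 1 over left-out libraries. The other pathway genes had 1 higher (*tsp-14*) with no fold change minimum and 0 to 1 over left-out libraries, and the other sma and lon genes 0 to 2. The replicate block moved no other call of a named gene past both thresholds. Over all genes, 469 were higher and 442 lower. Left-out libraries gave 5 to 465 higher, the fewest without high replicate 1 (5 higher, 0 lower) and high replicate 3 (47 higher, 17 lower), and 0 to 663 lower, and no filter gave 670 lower.

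The differences in *dbl-1*, *sma-4* and *lon-1* did not pass with 3 libraries per group, and the power at these sizes was not tested. The main fit's p-values set the group difference against a spread between these libraries that is estimated with help from all genes, without the replicate block. Worms per library were not given. Counts do not separate isoforms.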
